A study of Mus musculus with 26 samples.

Results

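The proneural and neuronal basic helix-loop-helix (bHLH) factors Neurod1, Neurod2, Neurod4, Neurod6, Bhlhe22, Neurog2, Atoh7 and Ptf1a were read across 13 sorted neuron subtypes of the mouse retina. The 8 genes were chosen by symbol. Of these, 7 had at least 1 probe set in the probe table of the array, with 13 probe sets between them, among 18193 genes measured in all. Bhlhe22 was not analysed here. The brightest probe set stood for each gene, defined as the highest mean of log2(intensity + 16) over the 26 arrays after quantile normalization. Tests were limited to genes above the overall median (log2 6.14) on 2 or more of the 26 arrays, and 6 members passed (Neurod1, Neurod2, Neurod4, Neurod6, Neurog2 and Atoh7). Ptf1a did not pass and is described without a test.

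All cells came from papain-dissociated retinas of mice at postnatal day 6 and were sorted by a fluorescent or bgal reporter, with 2 replicates from different litters for each subtype. The bipolar cells, which relay photoreceptor signals to the inner retina, were ON bipolar cells (GFP+, C57BL/6) and MP bipolar cells (CFP+ VC1.1-, mixed C57BL/6 x CD1). The 6 ganglion cell groups, the output neurons, were all Thy1+. They were BD, J, W3 and W7 (YFP+, C57BL/6), Isl2 (bgal+, C57BL/6) and Cdh3 (GFP+ from a Cdh3 BAC, labelled Swiss Webster x C57BL/7 for replicate 1 and Swiss Webster x C57BL/8 for replicate 2). The 5 amacrine groups, interneurons of the inner retina, were starburst (Kusabira Orange+ Thy1-, C57BL/6), PaxCre (GFP+, C57BL/6), MP (CFP+ VC1.1+, mixed C57BL/6 x CD1), AII (GFP+, Swiss Webster x C57BL/6) and J (YFP+, C57BL/6). The labels name PaxCre as a GABAergic subset and J as a glycinergic subset. Each group is thus whatever cells carried the reporter and passed the gate, and no group was labelled as a pure type beyond that. The J and MP lines each gave 2 of the groups.

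Proneural and neuronal bHLH factors bind the DNA letters CANNTG, called an E-box, as dimers with the broadly expressed E proteins Tcf3, Tcf4 and Tcf12. Id proteins lack the DNA-binding basic region and sequester E proteins, and Hes and Hey factors are repressors that often act downstream of Notch. In the mouse retina Atoh7 is required for ganglion cells, Ptf1a for amacrine and horizontal cells, and Neurod1 and Neurod4 take part in amacrine and bipolar cell formation.

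The 12 arrays from ganglion cells had median intensities of 61.5 to 74.8, against 37.4 to 47.1 for the 14 from bipolar and amacrine cells, so the scale of the deposited values and the ganglion cell class cannot be told apart. Marker lists were read as summed intensities. The 8 bipolar markers summed to 12463 to 26373 on bipolar arrays, 3557 to 5608 on ganglion arrays and 598 to 7680 on amacrine arrays, highest in starburst cells (7434 to 7680). Of these 8, 7 to 8 were above the overall median on bipolar arrays, 2 to 3 on ganglion and 1 to 6 on amacrine arrays. On starburst arrays 3 were, so the sum there does not reflect the list as a whole. The 8 ganglion cell markers summed to 212 to 4011 on bipolar arrays, 25191 to 32668 on ganglion arrays and 420 to 4463 on amacrine arrays. The 8 amacrine markers summed to 517 to 658 on bipolar arrays, 1437 to 3993 on ganglion arrays and 4628 to 21658 on amacrine arrays. Both MP amacrine arrays were at the low end of that last range (4628 and 4823), with the other 8 amacrine arrays at 16120 to 21658. Of the 8 amacrine markers, 6 to 7 were above the overall median on MP amacrine arrays. This number was 6 in AII, 7 in J and PaxCre and 7 to 8 in starburst cells. On MP amacrine arrays the 8 rod markers summed higher than the amacrine markers, to 7863 to 12304. Lists for cell types outside the labels were read as well. The 6 horizontal cell markers summed to 11897 to 12390 on starburst arrays. Tfap2b is on both that list and the amacrine list, so this sum does not separate horizontal from amacrine cells. The 9 microglia markers summed to 453 to 1990 on bipolar, 775 to 20840 on ganglion and 449 to 5103 on amacrine arrays, and the 7 vascular markers to 215 to 247, 295 to 8967 and 323 to 1036 in the same order of classes.

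Subtype means of 4 members spanned more than 5 log2 units, and the start regions of these genes are shown because a bHLH factor reads the E-box. Each is a RefSeq window on build GRCm38.p6, from 250 bases before to 50 after an annotated start, with CANNTG in capitals. CANNTG is its own reverse complement in form, so both strands give the same matches.
Neurod4: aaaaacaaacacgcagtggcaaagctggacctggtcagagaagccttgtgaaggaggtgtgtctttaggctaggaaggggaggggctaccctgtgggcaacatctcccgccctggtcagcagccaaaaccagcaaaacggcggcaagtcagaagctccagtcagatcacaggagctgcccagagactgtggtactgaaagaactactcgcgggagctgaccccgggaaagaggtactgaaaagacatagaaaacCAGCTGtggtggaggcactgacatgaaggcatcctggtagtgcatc
Neurod2: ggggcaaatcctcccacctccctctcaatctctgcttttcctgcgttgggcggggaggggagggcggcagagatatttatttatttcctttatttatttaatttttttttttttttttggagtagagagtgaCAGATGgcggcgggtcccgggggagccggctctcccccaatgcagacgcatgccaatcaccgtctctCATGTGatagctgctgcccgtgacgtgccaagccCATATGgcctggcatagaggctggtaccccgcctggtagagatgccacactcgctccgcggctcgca
Neurod6: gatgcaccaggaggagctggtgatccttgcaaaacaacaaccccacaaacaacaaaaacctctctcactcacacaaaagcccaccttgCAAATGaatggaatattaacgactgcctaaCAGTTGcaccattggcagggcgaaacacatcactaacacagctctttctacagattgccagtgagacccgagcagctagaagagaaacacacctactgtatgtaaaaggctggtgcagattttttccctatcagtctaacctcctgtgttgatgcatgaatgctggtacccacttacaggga
Neurog2: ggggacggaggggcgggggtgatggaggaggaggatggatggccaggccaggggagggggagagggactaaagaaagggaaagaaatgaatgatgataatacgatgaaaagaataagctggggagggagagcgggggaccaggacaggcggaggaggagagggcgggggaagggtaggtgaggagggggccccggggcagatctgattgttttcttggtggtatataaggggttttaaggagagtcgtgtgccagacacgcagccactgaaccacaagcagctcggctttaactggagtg
The Neurod4 window (chr10:130280089-130280388, minus strand) held 1 match, CAGCTG, at position 5 after the start, and the window of its other annotated start (chr10:130280205-130280504) held 0. The Neurod2 window (chr11:98329596-98329895, minus strand) held 3, the Neurod6 window (chr6:55681214-55681513, minus strand) held 2 and the Neurog2 window (chr3:127632886-127633185, plus strand) held 0. Of 32851 RefSeq windows of this length, 72.3% held at least 1 CANNTG and 16.3% held CAGCTG, 39.6% held as many CANNTG as Neurod6 and 17.6% as many as Neurod2. The letters of these windows are a description and say nothing of binding.

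Neurod1, a factor of photoreceptors and inner retinal neurons, was high in both bipolar groups and in most amacrine groups and lower in ganglion cells. On the log2 scale of its brightest probe set it read 11.82 and 11.72 in ON bipolar, 11.65 and 11.67 in MP bipolar cells. The 12 ganglion cell arrays had a lowest value of 7.37, a median of 9.82 and a highest value of 10.58. The 10 amacrine arrays had a lowest value of 9.09, a median of 11.57 and a highest value of 12.29. Every bipolar array thus lay above every ganglion cell array, while the amacrine arrays overlapped both classes. Neurod1 was 4.67-fold higher in bipolar cells than in ganglion cells (difference 2.22 ± 0.25 log2 units, SE, limma adjusted p = 3.83e-07) and 3.11-fold lower in ganglion cells than in amacrine cells (-1.64 ± 0.19, adjusted p = 3.53e-07). Bipolar against amacrine cells gave 0.59 ± 0.26 (adjusted p = 0.0895), which was not called. With the groups labelled C57BL/6 alone, ganglion against amacrine cells gave -0.74 for Neurod1, under the limit of 1 log2 unit (adjusted p = 0.00972), and bipolar against amacrine cells gave 1.25 and was called (adjusted p = 0.0156). Neurod1 is also a factor of rod photoreceptors, and the 8 rod markers measured summed to 4580 to 10053 on bipolar, 165 to 1525 on ganglion and 909 to 12304 on amacrine arrays, with 6 to 7, 1 to 4 and 4 to 7 of them above the overall median. The part of that signal in the Neurod1 levels was not tested. RNA of a sorted pool was read on each array, so fewer cells that express a gene and less RNA per cell cannot be told apart here or in any result that follows.

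By subtype, Neurod1 was highest in AII cells (12.21 and 12.29), above all other groups. It then ran from MP amacrine (mean 11.83) and ON bipolar (11.77), whose arrays overlapped, to MP bipolar (11.66) and starburst (11.57). The next 6 groups, from BD (10.47) through PaxCre, Isl2, W7 and J ganglion to J amacrine (9.72), each overlapped their neighbour in the order, and W3 (8.75) and Cdh3 (8.03) were lowest and overlapped each other. The replicates of 2 amacrine groups were far apart, at 11.03 and 9.51 in PaxCre and 10.35 and 9.09 in J.

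Neurod4, a factor linked in mouse to amacrine and bipolar cells, was high in both bipolar groups, low in all ganglion cell groups and split among the amacrine groups. It read 11.99 and 12.13 in ON bipolar, 12.46 and 12.38 in MP bipolar cells, against a lowest value of 6.52, a median of 6.94 and a highest value of 7.41 on the 12 ganglion cell arrays. Amacrine groups lay between and at both ends, at 6.99 and 7.04 in starburst, 9.63 and 7.97 in PaxCre, 12.20 and 12.51 in MP, 11.91 and 11.57 in AII, and 10.95 and 11.90 in J cells. On this probe set, starburst arrays lay within the ganglion cell range, PaxCre arrays above it, and MP, AII and J arrays near the bipolar values. Bipolar cells were 40.3-fold higher than ganglion cells (5.33 ± 0.23, limma adjusted p = 7.51e-13) with no overlap of arrays, and 3.93-fold higher than amacrine cells (1.98 ± 0.24, adjusted p = 3.16e-06). Ganglion cells were 10.3-fold lower than amacrine cells (-3.36 ± 0.17, adjusted p = 3.63e-12). With subtype means as the units, which asks whether the classes differ beyond the spread between subtypes, bipolar against amacrine was not called for Neurod4 (adjusted p = 0.368).

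**Figure D1:**
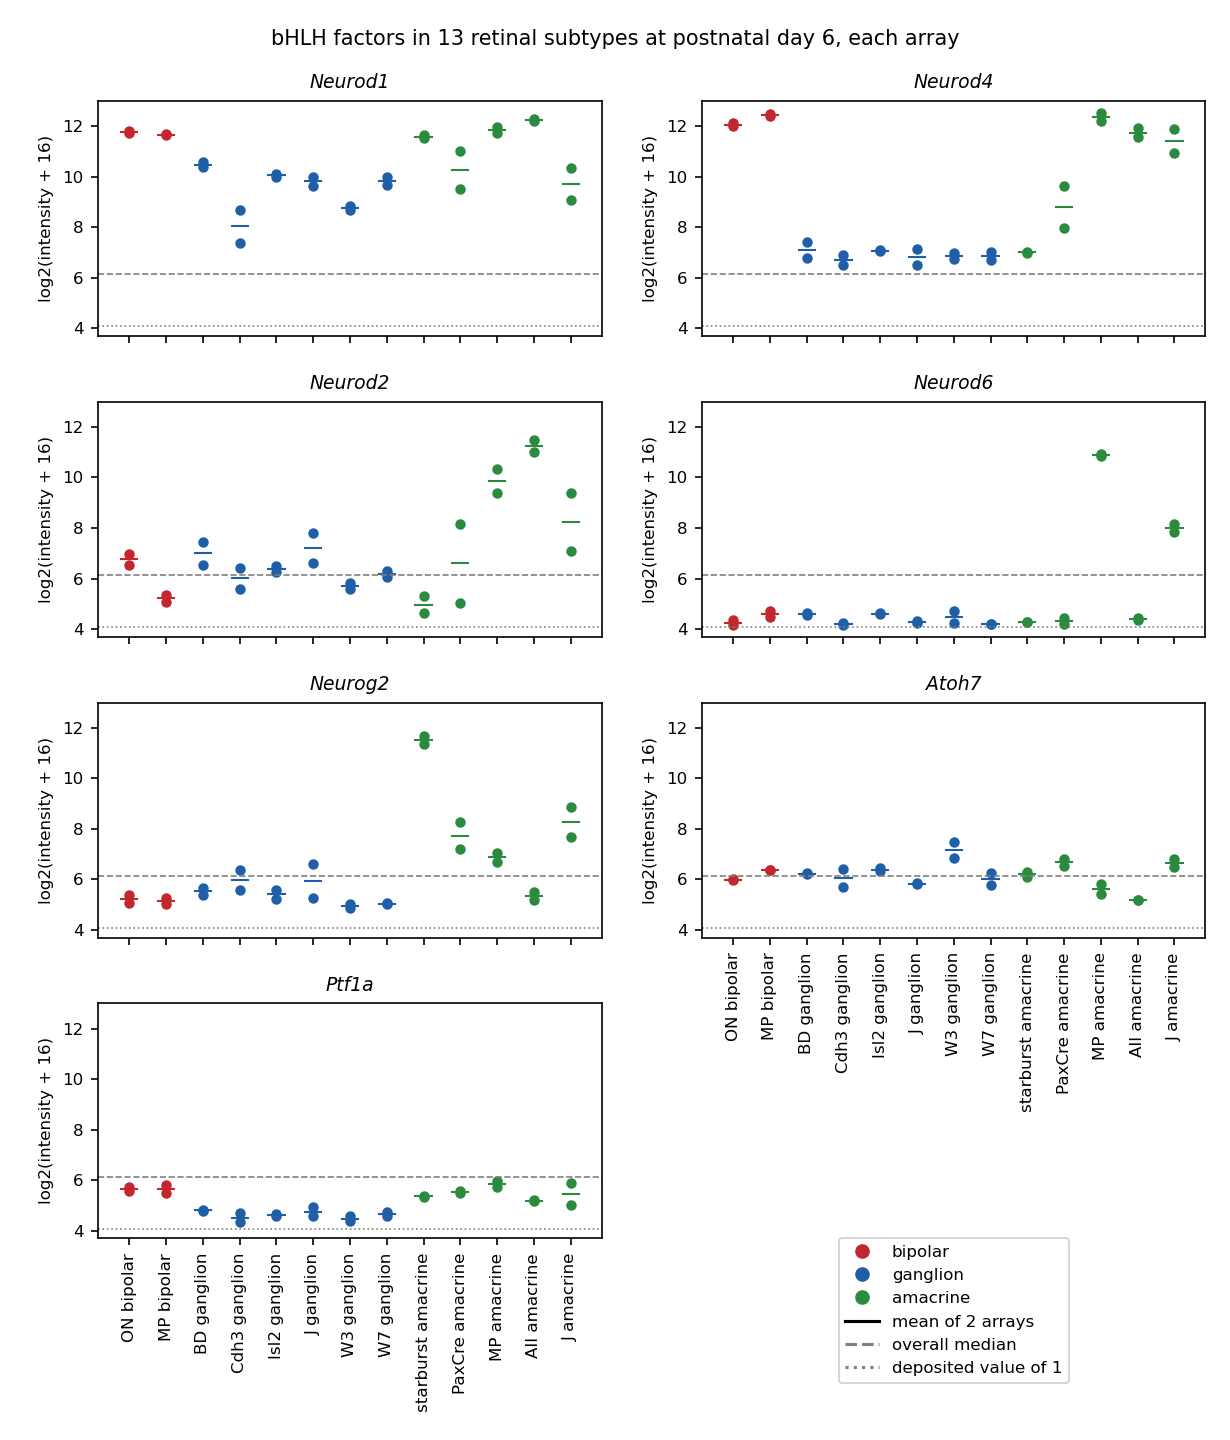
Level of each of the 7 measured members, as log2(intensity + 16) after quantile normalization, on every array (points) in the 13 subtypes, with bipolar, ganglion and amacrine cells in that order. The dashed line is the overall median (6.14) and the dotted line is the value of a deposited intensity of 1 (4.09). The brightest probe set of each gene is shown. On it Neurod4 is near the bipolar level in MP, AII and J amacrine cells. Neurod6 stands above the rest in MP and J amacrine cells, and Neurog2 in starburst cells.

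Neurod2, a neuronal differentiation factor known from AII amacrine cells, was highest in AII and next in MP amacrine cells. It read 6.98 and 6.54 in ON and 5.37 and 5.07 in MP bipolar cells, and the ganglion cell arrays had a lowest value of 5.58, a median of 6.36 and a highest of 7.81. Among amacrine groups it read 4.64 and 5.30 in starburst, 8.16 and 5.03 in PaxCre, 10.33 and 9.40 in MP, 11.48 and 11.01 in AII, and 7.11 and 9.37 in J cells. On this brightest probe set, AII and MP amacrine cells did not overlap their neighbours in the order, and MP bipolar and starburst cells were lowest and overlapped. The replicates of PaxCre and of J amacrine cells lay more than 2 log2 units apart. Neurod2 was 4.57-fold lower in bipolar than in amacrine cells (-2.19 ± 0.45, limma adjusted p = 0.000967) and 3.41-fold lower in ganglion than in amacrine cells (-1.77 ± 0.33, adjusted p = 0.000106). Both differences depended on the groups included. With the groups labelled C57BL/6 alone, ganglion against amacrine was -0.11 (adjusted p = 0.845) and bipolar against amacrine turned to 0.16, and without the MP line bipolar against amacrine was -1.0 (adjusted p = 0.273). With subtype means as units neither was called (adjusted p = 0.391 for bipolar and 0.135 for ganglion against amacrine cells).

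Neurod6 was near the floor of the arrays in 11 groups and high in the remaining pair, both amacrine. The bipolar arrays ran from 4.14 to 4.72 with a median of 4.43 and the ganglion cell arrays from 4.16 to 4.73 with a median of 4.29. MP amacrine arrays read 10.92 and 10.86 and J amacrine arrays 7.84 and 8.17, while starburst, PaxCre and AII arrays read 4.22 to 4.45. MP and J amacrine arrays were thus above every other array, and the other amacrine arrays lay within the bipolar range. A deposited intensity of 1 lies at 4.09 on this scale, so these low values have no order, and no fold is given against them. Neurod6 is known in mouse from amacrine cells that are neither GABAergic nor glycinergic, and here the J group, labelled glycinergic, held the second highest level. Neurod6 passed the filter on dim genes only through the 4 MP and J amacrine arrays, as 0 of 4 bipolar and 0 of 12 ganglion cell arrays lay above the overall median. Its differences are therefore given as levels with no test, and the counts of members called are over the other 5.

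Neurog2, a proneural factor of retinal progenitors, was highest in starburst amacrine cells. Bipolar arrays ran from 5.02 to 5.37 with a median of 5.16, and ganglion cell arrays from 4.85 to 6.59 with a median of 5.31. Among amacrine groups it read 11.68 and 11.38 in starburst, 8.26 and 7.21 in PaxCre, 6.69 and 7.06 in MP, 5.51 and 5.19 in AII, and 7.67 and 8.85 in J cells. Starburst arrays were above all others, PaxCre and J amacrine arrays overlapped each other, and AII arrays lay within the ganglion cell range. Neurog2 was 6.82-fold lower in bipolar than in amacrine cells (-2.77 ± 0.25, limma adjusted p = 8.75e-08) and 5.60-fold lower in ganglion than in amacrine cells (-2.48 ± 0.18, adjusted p = 6.34e-10), with overlapping arrays in both. Only 0 of 4 bipolar and 2 of 12 ganglion cell arrays lay above the overall median, so the size of these folds is uncertain. The bipolar difference was not called with subtype means as units (adjusted p = 0.206). The 7 progenitor and cell cycle markers measured summed to 933 to 1271.7 on starburst arrays, 2363 to 2552 on PaxCre, 1875 to 2052 on MP, 1276 to 1453 on AII and 1006 to 1448 on J amacrine arrays. The part of these cells in the Neurog2 levels was not tested.

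Atoh7, the factor on which ganglion cells depend in mouse, was dim at this age and did not separate the classes. Bipolar arrays ran from 5.98 to 6.38 with a median of 6.19, ganglion cell arrays from 5.72 to 7.48 with a median of 6.25, and amacrine arrays from 5.18 to 6.82 with a median of 6.20. W3 ganglion cells had the highest values (7.48 and 6.85), and AII cells the lowest (5.20 and 5.18). W3 was 2.08-fold above the mean of the other ganglion cell groups (1.06 ± 0.19, limma adjusted p = 0.00656) with no overlap of arrays. Without W3 replicate 1 that difference was 0.74 (adjusted p = 0.349), and without Cdh3 replicate 1 it was 0.99, under the limit of 1 log2 unit. It was 0.712 with a pseudocount of 64. Ganglion against amacrine cells gave 0.21 ± 0.10 (adjusted p = 0.0765). Ptf1a, which directs amacrine and horizontal cell fate, was above the overall median on 0 of 26 arrays. It read 5.49 to 5.80 on bipolar, 4.35 to 4.92 on ganglion and 5.03 to 5.97 on amacrine arrays, and it was not tested.

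Each of the 5 members varied among the 13 subtypes by limma's moderated F test, as did 71.3% of the genes tested. The range of subtype means was 4.22 log2 units for Neurod1, 6.27 for Neurod2, 5.71 for Neurod4, 6.59 for Neurog2 and 1.97 for Atoh7. In the comparisons that follow a member was called at a Benjamini-Hochberg adjusted p under 0.05 over 13951 genes, if its difference also reached 1 log2 unit.

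Between classes, 2 of 5 members were called in bipolar against ganglion cells, both higher (Neurod1 and Neurod4), where 29.6% of the genes tested were called. In bipolar against amacrine cells 3 of 5 were called, with Neurod4 higher and Neurod2 and Neurog2 lower, where 10.4% of genes were called. In ganglion against amacrine cells 4 of 5 were called, all lower, where 24.8% of genes were called. The median difference of the 5 members was -1.77 in that last comparison, beside 0.0027 over all genes tested, and 0.11 in bipolar against amacrine cells, beside 0.0111. Microglia and vascular marker sums, given above, reached higher values on ganglion than on amacrine arrays, and their part in these differences was not tested. Without normalization the all-gene median difference was 0.526 log2 units in ganglion against amacrine cells and -0.528 in bipolar against ganglion cells. Of the calls, 85.5% and 16.1% in these comparisons were then higher, beside 63.7% and 37.7% after quantile normalization. The 4 members called in ganglion against amacrine cells kept their direction and call without normalization, at -1.14 for Neurod1, -1.31 for Neurod2, -2.81 for Neurod4 and -2.12 for Neurog2. Bipolar against ganglion cells gave 1.77 for Neurod1 and 4.87 for Neurod4 in that setting.

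**Figure D2:**
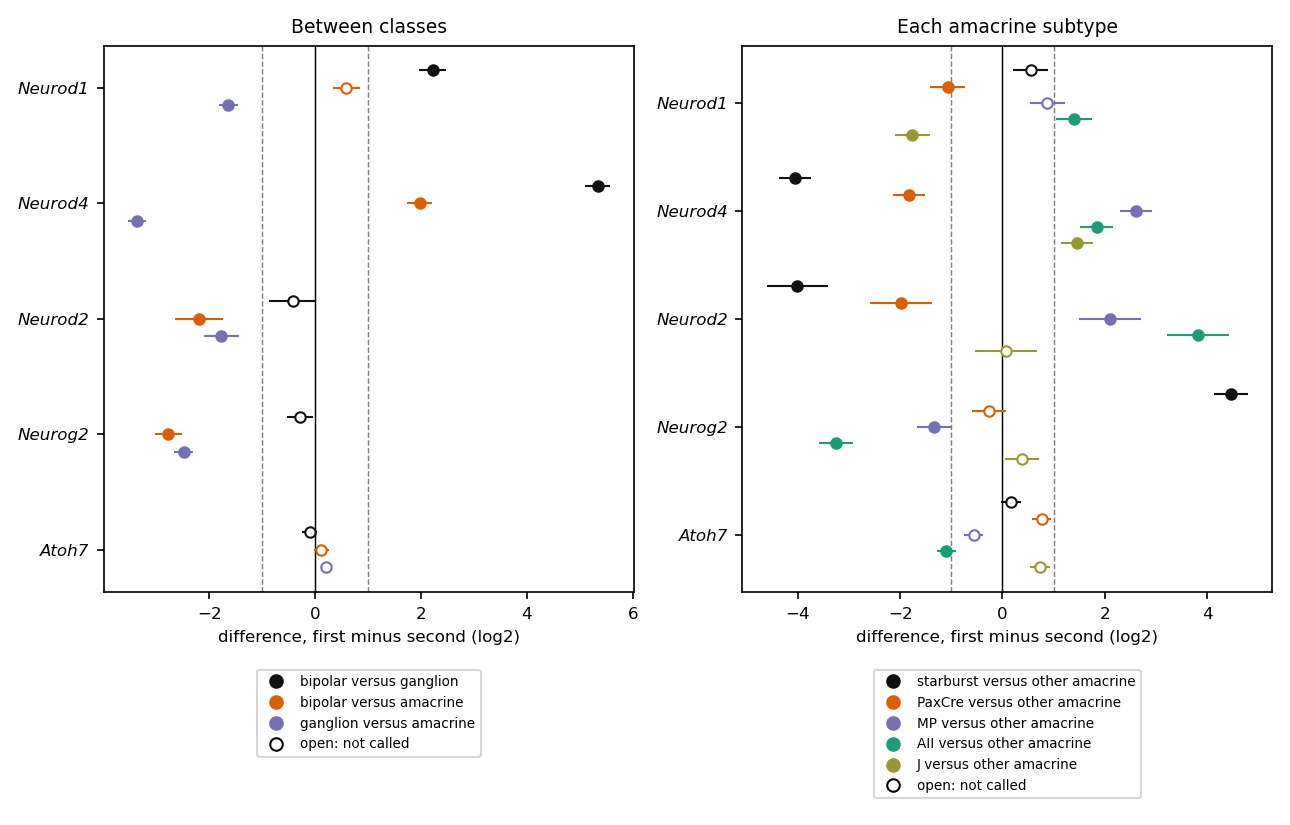
Difference of Neurod1, Neurod4, Neurod2, Neurog2 and Atoh7 in log2 units with its standard error, between classes (bipolar against ganglion, bipolar against amacrine and ganglion against amacrine cells) and for each amacrine subtype against the mean of the other amacrine subtypes. Filled points were called and dashed lines mark 1 log2 unit in either direction. The 4 called members lie left of 0 in ganglion against amacrine cells, and Neurog2 in starburst cells (4.47) is the farthest right among amacrine subtypes.

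Amacrine groups were also compared by transmitter class. GABAergic cells (starburst and PaxCre) were lower than glycinergic cells (AII and J) in Neurod4, by 12.8-fold (-3.68 ± 0.28, limma adjusted p = 2.86e-08) and with no overlap of arrays. They were also lower in Neurod2 by 15.5-fold (-3.95 ± 0.54, adjusted p = 2.92e-05) and higher in Neurog2 by 7.08-fold (2.82 ± 0.30, adjusted p = 1.49e-06), each with overlapping arrays. These were 3 of 5 members, where 9% of genes were called. Neurod2 in starburst cells (4.64 and 5.30) and Neurog2 in AII cells (5.51 and 5.19) were near the floor, so the size of both folds is uncertain. Neurog2 did not follow transmitter in each subtype, since its mean was 7.74 in GABAergic PaxCre cells and 8.26 in glycinergic J cells. Neurod6 did not either, with 4.41 in glycinergic AII cells and 8.00 in glycinergic J cells. Neurod1 gave -0.06 (adjusted p = 0.911) and Atoh7 0.52 (adjusted p = 0.0323), below 1 log2 unit. With subtype means as units 1 member was called, Neurod4, and Neurod2 (adjusted p = 0.0828) and Neurog2 (adjusted p = 0.229) were not. Starburst and AII were assigned their transmitter from general knowledge, and MP cells were left out since their labels give none.

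Starburst cells, the cholinergic amacrine cells, had 3 of 5 members called against the other amacrine groups, where 10.9% of genes were called. Neurog2 was 22.1-fold higher (4.47 ± 0.33, limma adjusted p = 1.16e-08). Neurod4 was 16.7-fold lower (-4.07 ± 0.31, adjusted p = 1.99e-08) and Neurod2 16.1-fold lower (-4.01 ± 0.60, adjusted p = 6.74e-05). The Neurod2 values of starburst cells (4.64 and 5.30) were near the floor, so the size of that fold is uncertain. The second Neurod2 probe set gave -1.53. Neurod6 was at the floor in starburst cells, as it was in PaxCre and AII cells. Neurod1 gave 0.56 (adjusted p = 0.263) and Atoh7 0.16 (adjusted p = 0.582).

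AII cells, which carry rod signals to the cone pathway, had 5 of 5 members called, where 16.2% of genes were called. Neurod2 (3.82 ± 0.60, limma adjusted p = 8.89e-05), Neurod4 (1.84 ± 0.31, adjusted p = 0.000195) and Neurod1 (1.40 ± 0.34, adjusted p = 0.004) were higher than in the other amacrine groups. Neurog2 (-3.25 ± 0.33, adjusted p = 8.4e-07) and Atoh7 (-1.10 ± 0.19, adjusted p = 0.000242) were lower. The Atoh7 difference fell under the limit of 1 log2 unit on the columns as deposited (-0.992) and with a pseudocount of 64 (-0.60). The Neurod1 difference was 1.36 without AII replicate 2 and was then not called (adjusted p = 0.0609). AII and MP amacrine cells each came from another cross than the C57BL/6 groups, so strain and subtype cannot be told apart for either.

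MP amacrine cells had 3 of 5 members called, where 10.4% of genes were called, beside the Neurod6 level of 10.92 and 10.86 that no other group reached. Neurod4 was 6.11-fold higher than in the other amacrine groups (2.61 ± 0.31, limma adjusted p = 1.02e-05). Neurod2 was 4.29-fold higher (2.10 ± 0.60, adjusted p = 0.016) and Neurog2 2.54-fold lower (-1.34 ± 0.33, adjusted p = 0.00643). Without MP amacrine replicate 1 these last differences were 1.64 (adjusted p = 0.196) and -1.16 (adjusted p = 0.0986). The 8 rod markers measured summed to 7863 to 12304 on MP amacrine arrays, with 6 of 8 above the overall median, and to 909 to 3628 on the other amacrine arrays. The part of the rod signal in the MP levels was not tested.

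J amacrine cells had 2 of 5 members called, where 6.06% of genes were called. Neurod4 was 2.73-fold higher (1.45 ± 0.31, limma adjusted p = 0.00483) and Neurod1 was 3.39-fold lower (-1.76 ± 0.34, adjusted p = 0.0022) than in the other amacrine groups. Without J amacrine replicate 2, Neurod4 was 0.98 (adjusted p = 0.145) and Neurod1 -1.13 (adjusted p = 0.106), and neither was called with array weights (adjusted p = 0.121 and 0.0602). PaxCre cells had 3 of 5 called, all lower, where 6.54% of genes were called: Neurod2 by 3.95-fold, Neurod4 by 3.57-fold and Neurod1 by 2.10-fold. The PaxCre replicates disagreed, and without replicate 2 the values were -0.31 for Neurod1 (adjusted p = 0.79), -0.42 for Neurod2 (adjusted p = 0.825) and -1.0 for Neurod4 (adjusted p = 0.0766). Without replicate 1 they were -1.83 for Neurod1 and -3.55 for Neurod2, and with C57BL/6 groups only -0.37, -0.01 and -0.42 for Neurod1, Neurod2 and Neurod4. The Neurod1 call was lost under 25 of 40 alternatives. The Neurod2 call in PaxCre cells was also lost without starburst replicate 2 (-1.90), MP amacrine replicate 1 (-1.87) or AII replicate 1 (-1.92).

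Few members were called among ganglion cell groups. In Cdh3 cells 1 of 5 members was called against the other ganglion cell groups, where 2.09% of genes were called. This was Neurod1, at 8.70 and 7.37 in Cdh3 cells, 3.37-fold lower (-1.75 ± 0.34, limma adjusted p = 0.00462), and without Cdh3 replicate 2 it was -1.09 (adjusted p = 0.324). Microglia markers summed to 775 and 11396 on the Cdh3 arrays, and their part was not tested. Cdh3 cells alone among the ganglion cell groups were labelled as a strain cross, so strain and subtype cannot be told apart for them. In W3 cells 1 of 5 was called, the Atoh7 difference given above, where 0.803% of genes were called. No member was called by limma in BD (0.495% of genes called), Isl2 (0.222%), J (2.04%) or W7 cells (1.37%), and at an unadjusted p under 0.05 there was 1 member in BD, 0 in Isl2, 1 in J and 0 in W7 cells. The BD member was Neurod1, with 10.36 and 10.58 in BD cells (1.18 ± 0.34, adjusted p = 0.164). The J member was Atoh7 (-0.54, adjusted p = 0.146).

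No member was called by limma between ON and MP bipolar cells, where 5.03% of genes were called, and 0 members had an unadjusted p under 0.05. Neurod2 had the widest gap, at 6.98 and 6.54 in ON and 5.37 and 5.07 in MP bipolar cells (1.54 ± 0.76, adjusted p = 0.338). Its second probe set gave -0.52. The J and MP lines allowed classes to be compared within 1 line and 1 strain. In the J line, ganglion cells were 24.3-fold lower than amacrine cells in Neurod4 (-4.60 ± 0.40, adjusted p = 5.23e-08) and 5.08-fold lower in Neurog2 (-2.34 ± 0.42, adjusted p = 0.000184), so 2 of 5 were called, where 30.8% of genes were called. J ganglion arrays also had the highest microglia (13101 to 20840) and vascular marker sums (7716 to 8967), against 480 to 1778 and 362 to 389 on J amacrine arrays, and their part was not tested. The all-gene median of that comparison was 0.563 without normalization. In the MP line, bipolar cells were 25.0-fold lower than amacrine cells in Neurod2 (-4.65 ± 0.76, adjusted p = 0.000291) and 3.32-fold lower in Neurog2 (-1.73 ± 0.42, adjusted p = 0.00957), so 2 of 5 were called, where 8.37% of genes were called. MP bipolar values were near the floor for Neurod2 (5.37 and 5.07) and Neurog2 (5.02 and 5.27), so the size of both folds is uncertain. The second Neurod2 probe set gave -0.59. The Neurog2 call was lost without MP amacrine replicate 2 (-1.54, adjusted p = 0.101) or MP bipolar replicate 1 (-1.61, adjusted p = 0.0812), and with a pseudocount of 64 (-0.993). Neurod4 gave 0.07 ± 0.40 (adjusted p = 0.963) in the MP line, with 12.46 and 12.38 in bipolar and 12.20 and 12.51 in amacrine cells.

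Other probe sets of a gene gave a check on these values, with likeness over the 13 subtype means as a description. The second probe set of Neurod1 followed the first (r = 0.971), as did that of Neurod4 (r = 0.993). The second Neurod4 probe set read 4.09 to 4.36 on all 12 ganglion cell arrays and 4.45 and 5.20 in starburst cells, near the floor. The third Neurod4 probe set had r = 0.897, and on it the differences in AII (-0.27) and J amacrine cells (-0.01) turned in sign. Ganglion against amacrine cells gave -1.32 on it, beside -3.36 on the brightest. The GABAergic against glycinergic difference was -0.71 (adjusted p = 0.128) on that probe set, beside -3.68 on the brightest, and that of PaxCre was -0.88 (adjusted p = 0.137). The second probe set of Neurod2 had r = 0.733 and disagreed in MP bipolar cells, where it read 6.87 and 7.06. Ganglion cell arrays read 4.19 to 5.60 on it, below ON bipolar (6.24 and 6.65) and starburst arrays (5.80 and 6.24) too. Bipolar against ganglion cells gave 1.77 on it, beside -0.42 on the brightest, and ON against MP bipolar cells -0.52, beside 1.54. On this second probe set Neurod2 was not called in bipolar against amacrine cells (-0.54, adjusted p = 0.0321), MP amacrine cells (0.40, adjusted p = 0.267) or the MP line (-0.59, adjusted p = 0.335). GABAergic against glycinergic cells gave -1.91 on it and starburst cells -1.53. The second probe set of Atoh7 (r = 0.236) and the third of Neurod2 (r = -0.267) were near the floor throughout, and Neurod6, Neurog2 and Ptf1a had 1 probe set each. On second probe sets Neurod1 in Cdh3 (-1.25, adjusted p = 0.0556) and Neurod4 in J amacrine cells (0.61, adjusted p = 0.174) were not called.

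**Figure D3:**
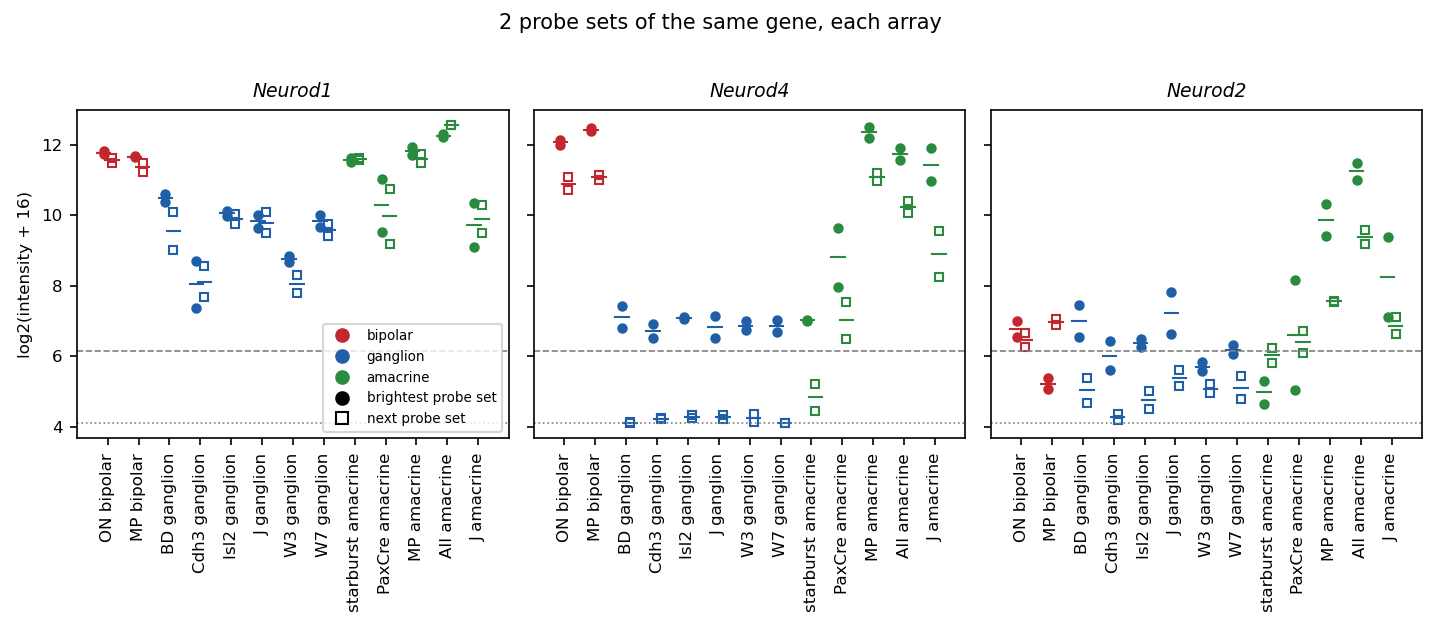
Subtype levels of Neurod1, Neurod4 and Neurod2 on the brightest probe set (circles) and the next brightest (open squares), as log2(intensity + 16) after quantile normalization. The probe sets of Neurod1 and Neurod4 follow each other. Those of Neurod2 part in MP bipolar cells, and in ON bipolar and starburst cells relative to ganglion cells. Levels of different probe sets are not comparable in height.

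The dimer partners and inhibitors of these factors were read from lists of 3 E proteins and 4 Id proteins, all measured and tested. Among E proteins, Tcf4 and Tcf12 were higher in bipolar than in ganglion cells (2.92 and 2.01) and lower in ganglion than in amacrine cells (-1.92 and -1.05), and Tcf3 was not called in any of these. Tcf4 was also higher in bipolar than in amacrine cells (1.0, limma adjusted p = 0.0153). In GABAergic against glycinergic cells Tcf4 was -3.10 and Tcf12 -1.45. In starburst cells both were lower than in the other amacrine groups (-3.38 and -1.97), and in MP (2.14 and 1.33) and AII cells (1.23 and 1.66) both were higher. Tcf4 was higher in J amacrine (1.58) and lower in PaxCre cells (-1.57).

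Id4, an inhibitor of bHLH dimers, read 5.05 and 5.65 in ON bipolar and 5.43 and 5.37 in MP bipolar cells. Its subtype means were 10.81 to 11.64 in ganglion cells, 11.94 in starburst, 12.57 in PaxCre, 6.80 in MP amacrine, 6.91 in AII and 10.81 in J amacrine cells. Its low groups were thus both bipolar groups and the AII and MP amacrine groups. Id4 was lower in bipolar than in ganglion (-5.78 ± 0.24, limma adjusted p = 4.92e-13) and amacrine cells (-4.43 ± 0.25, adjusted p = 1.6e-10), and higher in GABAergic than in glycinergic cells (3.40 ± 0.29, adjusted p = 1.4e-07). Id2 was also lower in bipolar cells than in ganglion (-3.89) and amacrine cells (-2.78), and higher in ganglion than in amacrine cells (1.11), as was Id4 (1.34). No other Id gene was called in these class comparisons.

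Of 12 other tissue-restricted bHLH genes, 11 were measured and 5 tested. Nhlh2, a neuronal bHLH factor, was called in more comparisons than the other 4 tested. Its subtype means were 6.03 in ON and 5.77 in MP bipolar cells, 7.06 to 8.88 in ganglion cells, and 11.08 in starburst, 9.78 in PaxCre, 11.47 in MP, 6.53 in AII and 11.02 in J amacrine cells. AII cells thus differed from the other amacrine groups in Nhlh2 (-4.31 ± 0.24, limma adjusted p = 3.94e-10). Nhlh2 was lower in bipolar than in ganglion (-1.75) and amacrine cells (-4.08) and lower in ganglion than in amacrine cells (-2.33). Neurog1, a close relative of Neurog2, was lower in bipolar than in ganglion cells (-1.53) and higher in ganglion than in amacrine cells (1.44), the other direction from Neurog2 (-2.48). Nhlh1 was higher in MP than in the other amacrine cells (2.05, adjusted p = 0.00248).

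Among 6 Hes and Hey genes, of which 5 were tested, Hes5, an effector of Notch, was lower in bipolar (-1.97) and ganglion cells (-1.52) than in amacrine cells, and lower in AII than in the other amacrine groups (-3.06). Hes6, which opposes other Hes factors, was higher in bipolar than in ganglion (1.27) and amacrine cells (1.36), higher in MP amacrine (1.81) and lower in AII cells (-2.44). Hey2 was higher in PaxCre (1.92) and lower in starburst (-1.91) and AII cells (-1.23). The 8 Muller glia markers measured summed to 568 to 824 on AII, 2527 to 2630 on starburst and 3310 to 3398 on MP amacrine arrays. They summed to 3255 to 3592 on J amacrine and 5542 to 6308 on PaxCre arrays. On bipolar arrays the sum was 2396 to 3154 and on ganglion arrays 3459 to 10102. The part of Muller glia in the Hes and Hey levels was not tested. Of 15 Notch pathway genes tested, 2 were higher (Dll3 and Notch1) and 3 lower (Maml1, Numb and Rbpj) in ganglion than in amacrine cells, where 24.8% of all genes were called. In bipolar against amacrine cells 1 of 15 was called, Dner (-2.19), where 10.4% of all genes were called.

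Of 16 transcription factors linked to these bHLH genes, 12 were measured and tested. Prdm8, a repressor known as a partner of bHLH factors, was 12.19 and 12.17 in ON and 12.62 and 12.60 in MP bipolar cells, against subtype means of 5.29 to 9.82 in ganglion cells. In amacrine cells its means were 5.19 in starburst, 12.12 in PaxCre, 12.44 in MP, 8.25 in AII and 10.92 in J cells. Otx2, a factor of photoreceptors and bipolar cells, was higher in bipolar than in ganglion (6.97) and amacrine cells (2.78) and lower in ganglion than in amacrine cells (-4.18). Crx, which acts with Otx2, gave 4.22, 2.33 and -1.89 in the same comparisons. Both were higher in MP than in the other amacrine groups (1.97 and 1.77), where rod markers summed to 7863 to 12304.

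**Figure D4:**
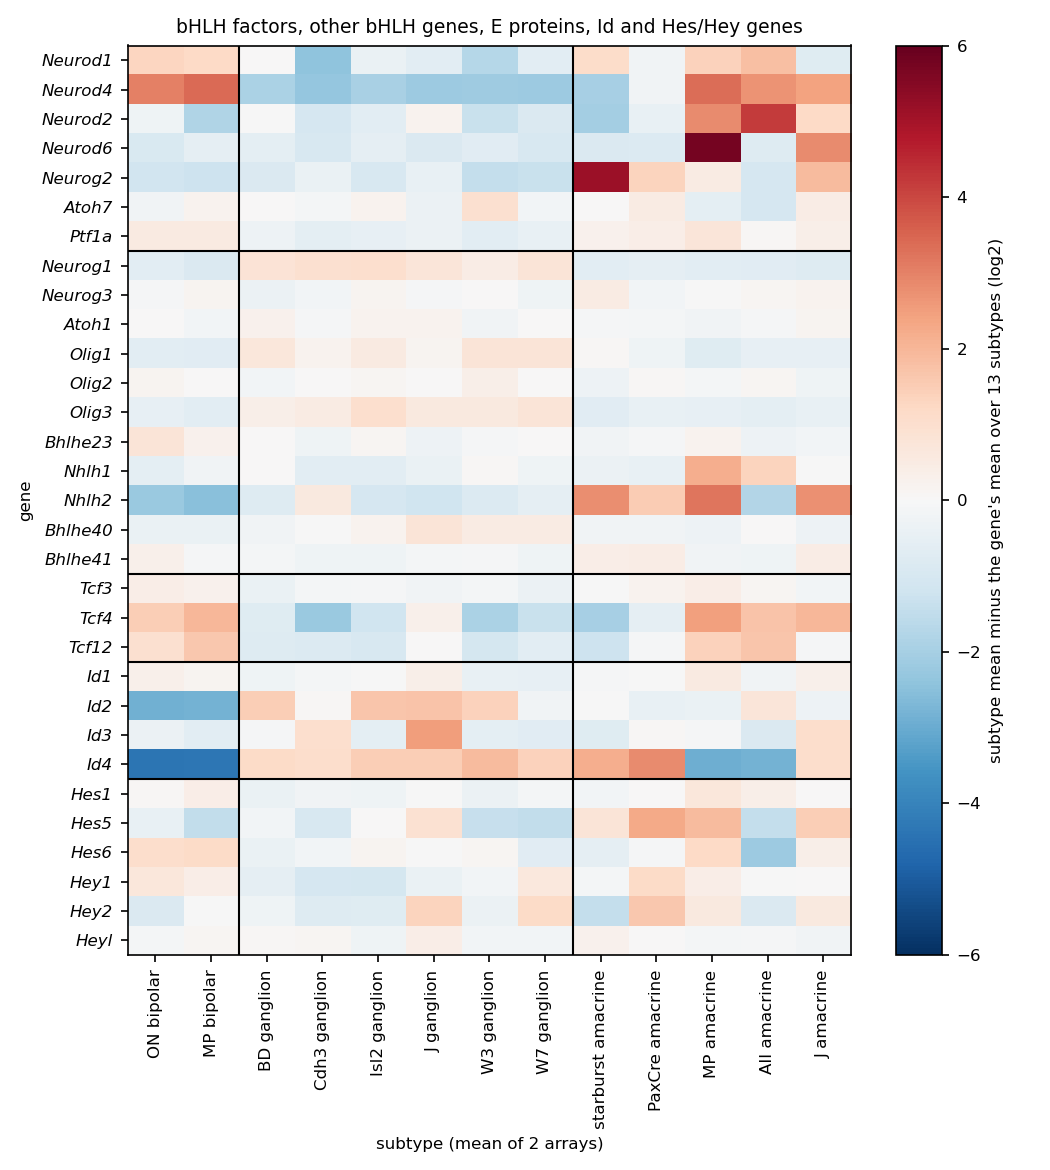
Subtype mean minus the gene's own mean over the 13 subtypes, in log2 units from -6 to 6, for the 7 measured members and the measured genes of the lists of other tissue-restricted bHLH factors, E proteins, Id proteins, and Hes and Hey factors. Tcf4 is low in starburst cells, Id4 is high in starburst and PaxCre cells, and Id4 is low in both bipolar groups and in MP and AII amacrine cells.

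Likeness between members was moderate. Over the 13 subtype means, which share arrays and scale, Pearson's r was 0.678 for Neurod1 with Neurod4, 0.533 for Neurod2 with Neurod4, 0.528 for Neurod2 with Neurod6 and 0.514 for Neurod4 with Neurod6. Neurod6 was near the floor outside MP and J amacrine cells. Its r values, here and in the list of like genes below, are therefore set by those groups and are a description only. Neurog2 had r = -0.062 with Neurod4 and -0.129 with Neurod2, and Neurod2 had -0.646 with Atoh7. By the same measure over all tested genes, the 3 genes most like each member were Cdsn (0.933), Hnrnpl (0.919) and Pabpc1l (0.918) for Neurod1, and Hmgxb4 (0.978), 4930417H01Rik (0.977) and Eif2d (0.976) for Neurod4. They were C130075A20Rik (0.931), Gas1 (0.931) and Cep43 (0.916) for Neurod2, and A930033C23Rik (0.950), Sowaha (0.937) and Efcab7 (0.916) for Neurod6. They were Ephb6 (0.957), Npy (0.948) and Grm2 (0.947) for Neurog2, and Pogk (0.941), Pop1 (0.831) and Shf (0.825) for Atoh7.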

How the data were processed

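RNA of sorted cells was amplified in 2 rounds and hybridised to Affymetrix arrays, per the labels. The authors deposited 1 table of intensity values on a linear scale, and the software, scaling and summary method behind it were not given in the sources used here. The deposited intensity columns were converted here to log2 values with a pseudocount of 16 and quantile normalized over 26 arrays, because array medians spread by 0.765 log2 units, above a limit of 0.2. Of 45101 probe sets, 64 controls, 9160 without a symbol and 932 with several were left out. The brightest of the remaining 34945 stood for each gene, and 13951 genes were tested.

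limma 3.58.1 was run in R 4.3.3 on 13 subtype means, leaving 13 residual and 4.59 prior degrees of freedom, and every subtype on a side of a comparison counted equally. Tests were two-sided, with Benjamini-Hochberg adjustment over all genes within each of 18 comparisons, and calls needed 1 log2 unit of difference besides an adjusted p under 0.05. Errors come from replicates within subtypes, so a class difference holds for these subtypes, and subtype means as units were an alternative. The number of arrays limits the precision. Neurod6 passed the filter only through MP and J amacrine arrays and was set aside from counts and tests in the text, after seeing the data. The script was tested on simulated data.

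The members and all gene lists were chosen with earlier results of these data known. All members are named, genes of the fixed lists are counted and may be named, and for each tested member the 3 genes with the highest correlation over subtype means are named. Alternatives covered normalization, pseudocount, filter, probe set, variance model, strain, line, replicate block and each array left out. Comparisons within lines against other subtypes, the settings without a line and the third probe set were added after seeing the data.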

Additional observations from a re-analysis of the deposited data

Results flagged for a closer look

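Within the MP line, the bipolar minus amacrine difference departed from that of the other subtypes in Neurod2 and Neurod4, by limma's test of the difference between the differences, which was added after seeing the data. It was -3.65 ± 0.97 log2 units for Neurod2 (adjusted p = 0.0216), with -4.65 in the line and -1.0 elsewhere, and -2.25 ± 0.51 for Neurod4 (adjusted p = 0.00724), with 0.07 in the line and 2.32 elsewhere. Among all genes tested, 8.63% passed this test. Both values are from the brightest probe sets. The second Neurod2 probe set gave -0.59 in the MP line, beside -0.54 over all bipolar and amacrine subtypes, so the departure was not seen on it. For Neurod6 the value was -5.28, with -6.28 in the line and -1.0 elsewhere, given with no test because all bipolar arrays were at the floor and the gene passed the filter only through MP and J amacrine arrays.

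Within the J line, the ganglion minus amacrine difference departed from that of the other subtypes in Neurod1, Neurod4 and Atoh7. It was 2.15 ± 0.48 for Neurod1 (adjusted p = 0.00916), with 0.10 in the J line and -2.05 elsewhere, and -1.55 ± 0.44 for Neurod4 (adjusted p = 0.034), with -4.60 in the line and -3.05 elsewhere. For Atoh7 it was -1.27 ± 0.27 (adjusted p = 0.00641), with -0.82 in the line and 0.45 elsewhere. Among all genes tested, 7.15% passed. These values are from the brightest probe sets. The next brightest Neurod4 probe set gave -4.63 in the J line, beside -4.21 over all ganglion and amacrine subtypes. The dimmest Neurod4 probe set gave -1.28, beside -1.32, so the departure was not seen on it. The other Neurod1 probe set gave -0.11, beside -1.96. The values over all subtypes include the J line, and the departure was not tested on these other probe sets. For Neurod6 the value was -2.16, with -3.71 in the line and -1.56 elsewhere, again with no test. The other subtypes also differ from the J and MP groups in strain and gate, and their part was not tested.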

How the results depend on the processing

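Of the 49 member differences followed under 44 alternative settings, 1881 values kept their direction and their side of the threshold, 76 kept the direction and lost the call, 1 gained it and 11 turned in sign. Counts of members here include Neurod6, so in each comparison with amacrine cells they are 1 above those of the text where it passed. Neurod6 passed the filter only through MP and J amacrine arrays, so these counts describe the settings and are no result about the members. Among all genes, 957 were called in PaxCre cells with the columns as deposited and 1071 with a pseudocount of 4, beside 912 with the settings of the text. In W3 cells 73 were called with a pseudocount of 64, beside 112. The number of members called in PaxCre cells was 2 with the columns as deposited, a pseudocount of 4, C57BL/6 groups only or only the arrays compared, and 1 to 4 with 1 array left out. In W3 cells it was 0 with a pseudocount of 64, a stricter filter, the median over probe sets, the next probe set or only the arrays compared, and 0 to 1 with 1 array left out. In Cdh3 cells it was 0 on the next probe set and 0 to 1 with 1 array left out. In J amacrine cells it was 1 with array weights, 5 with C57BL/6 groups only and 1 to 3 with 1 array left out, and in MP amacrine cells 2 to 5 with 1 array left out. Leaving out 1 array gave 5 to 6 in AII cells, 3 to 4 in the J line and 2 to 3 in the MP line. Ganglion against amacrine cells gave 3 with C57BL/6 groups only or subtype means as units. Subtype means as units gave 0 in bipolar against amacrine cells and 1 in GABAergic against glycinergic cells. ON against MP bipolar cells gave 1 with only the arrays compared.

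The values that turned in sign were Neurod2 in bipolar against amacrine cells (0.16 with C57BL/6 groups only), and Neurod4 in AII (-0.27) and J amacrine cells (-0.013) on the third probe set. Neurod4 in the MP line, not called in any of these, was -0.0069 with the median over probe sets and on the next probe set, and -0.0896 to 0.22 with 1 array left out. Neurod1 in the J line, also not called, was -0.0038 with the median over probe sets, -0.029 with a median shift and -0.106 on the next probe set, and -0.53 to 0.73 with 1 array left out. With the replicate number as a block, 5 members were called in ganglion against amacrine cells and 4 in bipolar against amacrine cells, and no call changed. The numbers did not pair the samples: same-numbered deviations correlated above 0.1 in 21 of 78 pairs of subtypes (-0.228 to 0.374, median 0.03). Levels near the floor of 4.09 limit Neurod6, the second probe sets of Neurod4 and Atoh7, and Neurod2 in starburst and MP bipolar cells. They also limit Neurog2 in bipolar and AII cells and on most ganglion cell arrays. With a pseudocount of 64, Neurod6 in J amacrine cells was 0.95 and Atoh7 in AII cells -0.60. The cause of each change was not tested.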
